A study of Mus musculus with 8 samples.

Results

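The SoxB genes of the mouse, *Sox1*, *Sox2*, *Sox3*, *Sox14* and *Sox21*, were followed in Day 4 neural progenitor (NP) cells with and without *Sox3*. They were chosen by gene symbol, and each was measured by 1 transcript cluster, the set of array probes summarised into a single value, so that 5 of the 19938 genes with a symbol of their own are described. The cells were mouse R1 embryonic stem (ES) cells, grown as monolayers in N2B27, a medium free of serum that lets ES cells turn neural. *Sox3* null cells carry GFP in place of the single *Sox3* exon. Control cells carry a conditional *Sox3* allele, are labelled *Sox3* positive, and are called wild type in the methods. No drug or sorting step separates the groups, and every array holds RNA of a whole Day 4 culture. There were 4 cultures of each genotype, made as 2 cultures per differentiation batch over 2 batches, and RNA of each was hybridised to a separate Affymetrix mouse gene array. Each genotype is carried by its own targeted ES line, so the loss of *Sox3* and whatever else separates the lines cannot be told apart. The labels give gelatine as the surface for ES cell maintenance, whereas the methods give irradiated embryonic fibroblasts.

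SOX proteins bind DNA through an HMG box, a domain that bends the helix at short A and T rich sites. SOX1, SOX2 and SOX3 form the SOXB1 group. They are mostly activators, work with partners such as POU factors, are present together in neural progenitors and hold back neuronal differentiation. SOX14 and SOX21 form the SOXB2 group, which share the HMG box but act mostly as repressors. SOX21 is found in progenitors and promotes their exit to neurons, and SOX14 marks restricted sets of interneurons.

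Promoter sequences from RefSeq (GRCm38.p6, windows around each start that reach mostly upstream) matched 4 of the 5 genes, *Sox1*, *Sox2*, *Sox14* and *Sox21*. They were searched on both strands for the SOX core sites ACAATG and ACAAAG, which cannot overlap at the same start, and for the POU octamer ATGCAAAT. The windows with a match are shown because *Sox1* and *Sox2* are the SOXB1 genes that remain in *Sox3* null cells, with the match in capitals.
Sox1, POU octamer, + strand, chr8:12395526-12395555: gccagcgcgccATGCAAATcaccgccgccg
Sox2, SOX core, + strand, chr3:34649777-34649806: ggggggggggatACAAAGgttccccagcgg
The *Sox1* octamer begins at base 19 counted from the start as base 1, and the *Sox2* match begins at base -206, counted back from the start. An octamer was held by 1.74% of all 32851 promoters searched, ACAAAG by 18.7% and ACAATG by 12.6%. No match to these letters was found in the *Sox14* and *Sox21* windows. A match is a description of the letters and not a measured binding site.

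Signals were deposited on a log2 scale after normalization by the authors, and array medians lay between 7.01 and 7.18 over all 35556 rows. Because probes differ in how they bind, levels were compared between arrays and not between genes, and a place among the rows of an array is given only as a rough position. All 8 neural progenitor markers (*Nes*, *Pax6*, *Fabp7*, *Msi1*, *Notch1*, *Hes5*, *Vim* and *Prom1*) lay above 7.67, the median signal of the 23410 named rows. The same held for 2 of 9 measured mesoderm and endoderm markers, 2 of 8 fibroblast markers, 2 of 7 neural crest markers, 5 of 5 neuron markers and 6 of 7 pluripotency markers. This position does not single out progenitors, since neuron markers and pluripotency genes such as *Nanog* and *Pou5f1* also lay above the median. Between genotypes, limma with a batch term called 0.431% of the 23410 named rows, counting those with an adjusted p up to 0.05 and at least a 1.4-fold difference, and 1.55% whatever the fold (1.15% rising and 0.393% falling with the loss of *Sox3*). Of the 8 fibroblast markers, 1, *Thy1*, fell (-0.51, adjusted p = 0.00525 from limma), none rose, and 5 had a log2 fold change above 0. *Thy1* lay below the median signal. Of the 5 SoxB genes, 4 lay above the median signal and 1, *Sox3*, was called.

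*Sox3* was lower on every *Sox3* null array. The control arrays read 9.92 and 9.84 in batch 1 and 9.73 and 9.76 in batch 2. The null arrays read 8.39 and 8.56 in batch 1 and 8.67 and 8.37 in batch 2. The groups did not overlap, all null arrays being below all control arrays as for 2.19% of named rows, and the gap between them was far wider than the largest gap of 0.30 between arrays of the same genotype and batch. The fall was 2.48-fold (95% interval 2.21 to 2.79), or -1.31 on the log2 scale (standard error 0.08, limma adjusted p = 3.87e-05), and only 0.00427% of named rows, *Sox3* itself, had a difference as large. Signal did not vanish from the null arrays. *Sox3* lay above 57.6% to 61.8% of named rows on the null arrays and above 75.6% to 78.3% on the control arrays. Array signal includes a background that differs between probes, and how much of the remaining signal is background was not tested. The fold change is thus no measure of how far *Sox3* RNA fell, and the remaining signal is no evidence of *Sox3* RNA in null cells.

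**Figure D1:**
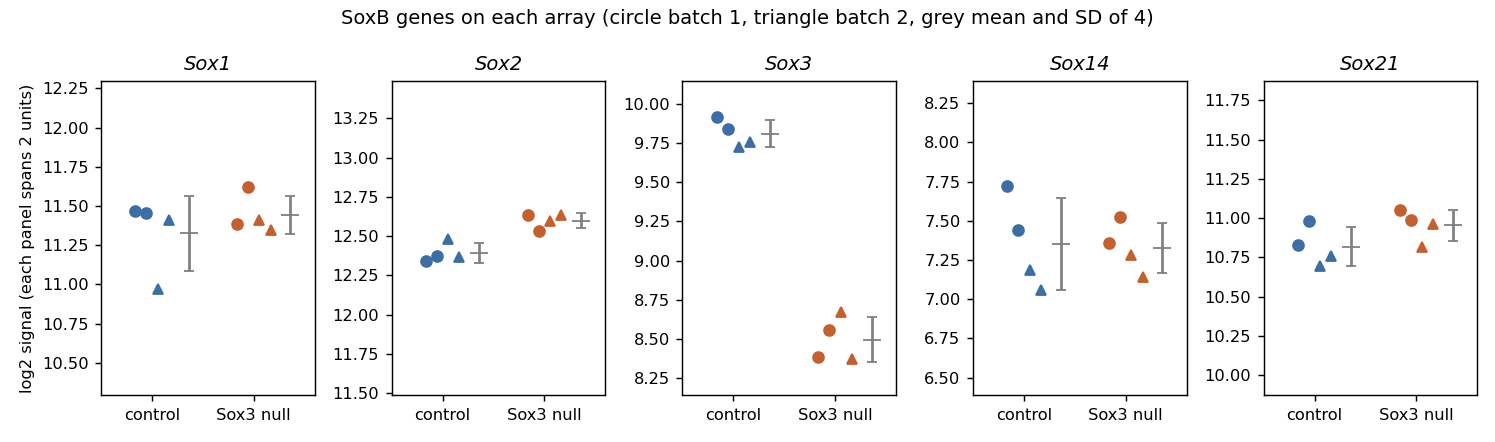
Log2 signal (vertical axis, each panel spanning 2 units) of the 5 SoxB genes on the 4 control and 4 *Sox3* null arrays. Batch 1 is drawn as circles and batch 2 as triangles, with means and SDs of 4 arrays in grey. On null arrays *Sox3* reads 8.67 or less, and on control arrays 9.73 or more, and *Sox2* reads at least 12.53 against at most 12.48.

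*Sox2*, the SOXB1 factor shared by ES cells and neural progenitors, had slightly higher values in *Sox3* null cells, a difference that missed the threshold over all genes. The control arrays read 12.34 and 12.37 in batch 1 and 12.48 and 12.37 in batch 2. The null arrays read 12.63 and 12.53 in batch 1 and 12.59 and 12.64 in batch 2. All 4 null arrays lay above all 4 control arrays, which was so for 2.41% of named rows, and the largest gap between arrays of the same genotype and batch was 0.12. This came to 0.21 in log2 units (standard error 0.05, limma adjusted p = 0.0825), or 1.16-fold with a 95% interval of 1.07 to 1.25. Of all named rows, 5.11% had a difference as large in either direction. An exact permutation of genotype within batches gave a two-sided p of 0.0556, which is the smallest that the 36 arrangements allow, and *Sox3* and *Sox21* gave the same p. The call depended on the fit, with an adjusted p of 0.0189 from limma when the variance followed signal intensity and 0.0470 when rows below the median signal were left out, which also lowers the number of rows tested.

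The neural progenitor markers also had higher values on the null arrays, with no test of the list as a whole. Their mean log2 signal ran from 11.28 to 11.43 on the control arrays and from 11.47 to 11.60 on the null arrays, again without overlap. It was higher by 0.17 in *Sox3* null cells, against 0.21 for *Sox2*. Among the 8 markers the largest difference was 0.49, for *Nes*, and the median was 0.13. All 8 had a log2 fold change above 0, as did 11694 of 23410 named rows. The test was passed by 1 of them, *Nes*, and not by 7, where 1.15% of all named rows rose. *Nes*, *Pax6*, *Fabp7*, *Notch1*, *Hes5* and *Prom1* are also in the SOXB1 partner and target list below, so these are not separate observations. In whole cultures, a larger share of progenitors and more RNA per progenitor cannot be told apart. The part of the marker difference in that of *Sox2* was not tested.

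*Sox1*, which comes on as ES cells commit to a neural fate, did not separate the genotypes. The control arrays read 11.47 and 11.46 in batch 1 and 10.97 and 11.41 in batch 2. The null arrays read 11.38 and 11.62 in batch 1 and 11.41 and 11.35 in batch 2. The groups overlapped in both batches, and control replicate 3, at 10.97, stood below the other 7 arrays, which lay between 11.35 and 11.62. The estimate was 0.11 in log2 units (standard error 0.09, limma adjusted p = 0.673), or 1.08-fold with a 95% interval of 0.94 to 1.25. Without control replicate 3 it was 0.01. The largest gap between *Sox1* arrays of the same genotype and batch, 0.44, was wider than the genotype difference.

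*Sox21*, the SOXB2 repressor of progenitors, had values a little higher in *Sox3* null cells within each batch. The control arrays read 10.83 and 10.98 in batch 1 and 10.70 and 10.76 in batch 2. The null arrays read 11.05 and 10.99 in batch 1 and 10.82 and 10.96 in batch 2. In either batch the null arrays were the higher pair, though barely in batch 1, where control replicate 2 read 10.984 and null replicate 2 read 10.985. Over both batches the groups overlapped. The estimate was 0.14 in log2 units (standard error 0.06, limma adjusted p = 0.331), or 1.10-fold with a 95% interval of 1.01 to 1.20.

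*Sox14*, the SOXB2 factor of restricted interneurons, was near the middle of the signal range and below the median of named rows, above 43.0% to 50.5% of rows over the 8 arrays. The control arrays read 7.72 and 7.44 in batch 1 and 7.18 and 7.06 in batch 2. The null arrays read 7.36 and 7.53 in batch 1 and 7.28 and 7.14 in batch 2. The genotypes overlapped over the 8 arrays, and the differences had opposite signs in the batches, -0.14 and 0.09. The estimate was -0.02 in log2 units (standard error 0.08, limma adjusted p = 0.948), with a 95% interval from a fold of 0.87 to 1.11. At this signal, a low level and background were not separated.

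**Figure D2:**
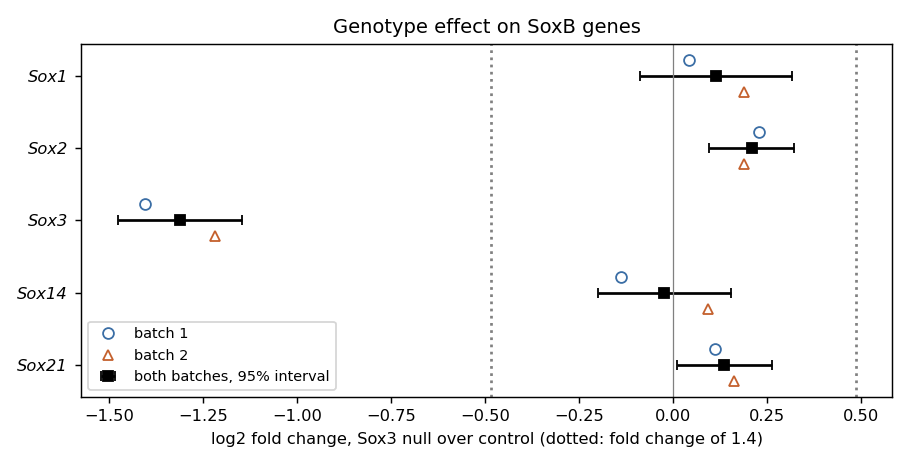
Genotype difference, *Sox3* null minus control in log2 units (horizontal axis), of the 5 SoxB genes. Squares are limma's estimates over both batches with 95% intervals, open circles and triangles the differences in batch 1 and batch 2, and dotted lines a fold change of 1.4. *Sox3* lies at -1.31, and the intervals of the other 4 genes stay between the dotted lines.

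Set side by side, the remaining SOXB genes differed far less than *Sox3* did. The 95% intervals of 4 of the 5 genes, all but *Sox3*, lay within a fold change of 1.4 in either direction, with upper ends of 1.25-fold for *Sox1* and *Sox2*, 1.20-fold for *Sox21* and 1.11-fold for *Sox14*. Within batches, the null pair lay beyond the control pair, in the same direction both times, for 3 of the 5 genes, *Sox2*, *Sox3* and *Sox21*, and for 12.1% of named rows. At an unadjusted p under 0.05 these same 3 genes were counted, against 13.1% of named rows. *Sox3* is the deleted gene, so its place in both counts was set by the design. *Sox21* separated in batch 1 only by 10.985 on null replicate 2 against 10.984 on control replicate 2. The genotype difference of *Sox2* was 0.23 in batch 1 and 0.19 in batch 2, that of *Sox3* -1.40 and -1.22, that of *Sox21* 0.11 and 0.16, and that of *Sox1* 0.04 and 0.19. The test of whether genotype differences changed from batch to batch passed for none of the 5 genes and none of the 23410 rows in limma, with 3.05% of rows at an unadjusted p under 0.05. The intervals of that difference were wide, from -0.28 to 0.20 for *Sox2* and from -0.27 to 0.57 for *Sox1*.

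Differences between differentiation batches were estimated for each SoxB gene, and these estimates were not tested against each other. *Sox14* was lower in batch 2, with a log2 difference of -0.34 (standard error 0.08, adjusted p = 0.0122 from limma), and it was the 1 SoxB gene to pass, against 20.2% of all named rows. *Sox1* had -0.20 (adjusted p = 0.173) and *Sox21* had -0.15 (adjusted p = 0.0865). *Sox2* had 0.05, with a 95% interval of -0.06 to 0.16, and *Sox3* had -0.04, with an interval of -0.21 to 0.12. For *Sox1*, *Sox14* and *Sox21* the difference between batches was thus larger in size than that between genotypes, and for *Sox2* and *Sox3* it was smaller, as estimated values with no test between them.

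The profile nearest to *Sox3* over the 8 arrays was that of *Dbx1*, a homeobox gene of intermediate progenitors of the neural tube. Nearness was taken as the root mean square difference between log2 profiles, each centred on its own mean, among 10944 rows with 1 symbol and a signal above the median. *Dbx1* differed from *Sox3* by 0.219, where *Sox3* itself varied by 0.664 around its mean. That variation is mostly the genotype difference, so nearness to *Sox3* picks out rows that fall by a like amount in *Sox3* null cells. The fold changes of these rows restate that choice and are no separate result. *Dbx1* read 11.25, 11.20, 11.05 and 11.01 on the control arrays and 10.27, 10.09, 9.75 and 9.82 on the null arrays. Its log2 fold change was -1.15 (adjusted p = 3.83e-05 from limma). Next came *Pim2*, a serine/threonine kinase gene, with a distance of 0.373 and a log2 fold change of -0.64, and *Mir302d*, a microRNA of pluripotent cells, with 0.381 and -0.79. In leave-one-out fits *Mir302d* lost its call in 6 of 8, and *Pim2* in 1, with an adjusted p of 0.0532. The order within the null group differed, since *Dbx1* was lower in batch 2 and *Pim2* and *Mir302d* were lower in batch 1, whereas *Sox3* mixed the batches.

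**Figure D3:**
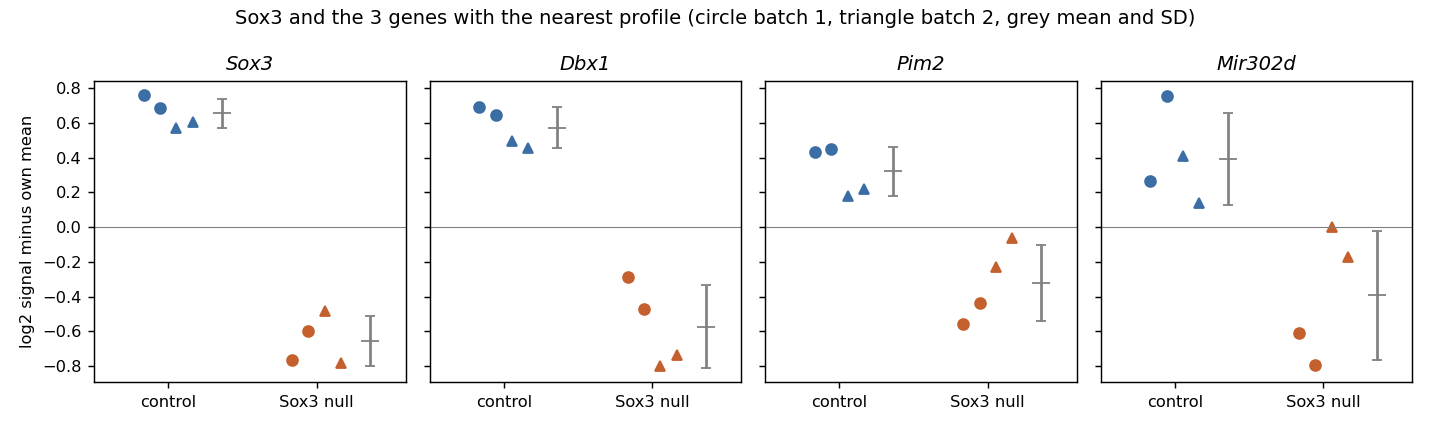
Log2 signal minus each gene's own mean (vertical axis) for *Sox3* and the 3 genes with the nearest profiles, *Dbx1*, *Pim2* and *Mir302d*. Batch 1 is drawn as circles and batch 2 as triangles, with means and SDs of 4 arrays in grey. *Dbx1* lies nearest to *Sox3*, at a root mean square difference of 0.219.

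By the same measure *Sox2* was nearest to *Rnf2*, a Polycomb ubiquitin ligase gene (0.037), then to *Zbed3* and *Adam10*. *Sox21* was nearest to *Pogk* (0.024), *Tmem68* and *Adgrl2*, and *Sox1* to *Spata5l1* (0.048), *Lrp3* and *Scrib*. None of these 9 genes passed the genotype test, and their log2 fold changes ran from 0.06 for *Scrib* to 0.20 for *Adam10*. *Sox2* and *Sox21* varied little around their means (0.116 and 0.118), so nearness to them picks out rows that also vary little. *Sox1* varied by 0.173. *Spata5l1*, *Lrp3* and *Scrib* were, like *Sox1*, lowest on control replicate 3. *Sox14*, below the median, was not ranked.

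The genes beside the SoxB loci were examined to see whether a locus as a whole shifted. In the gene order of GRCm38.p6, the 5 measured genes on either side of each member gave 50 neighbours, none of which passed in limma (1.55% of all named rows did). Of the 50, 24 lay below the median signal of named rows, where a low level and background were not separated. Values above 0 were found for 35 of the 50, against 11694 of 23410 named rows. At an unadjusted p under 0.05 there were 13 of the 50, against 13.1% of named rows, of which 4 lay beside *Sox1*, 1 beside *Sox2*, 2 beside *Sox3*, 2 beside *Sox14* and 4 beside *Sox21*. Beside *Sox1* on chromosome 8 these were *Atp11a* (0.23), *Tubgcp3* (0.12), *A230072I06Rik* (-0.16) and *Gm15348* (-0.22), with adjusted p from 0.155 to 0.309. Around *Sox3* on chromosome X, log2 fold changes ran from -0.10 to 0.16 beside the -1.31 of *Sox3*, with *Gm715* at 0.16 (adjusted p = 0.193) and *Cdr1os* at 0.12 (0.289). Around *Sox2* on chromosome 3 they ran from -0.09 to 0.16, below the 0.21 of *Sox2*, with *Mccc1* at 0.16 (adjusted p = 0.302). Around *Sox21* on chromosome 14, 9 of the 10 neighbours lay above 0 with a median of 0.10, near the 0.14 of *Sox21*, among them *Gpc6*, a glypican gene, at 0.23 (adjusted p = 0.0960), *Cldn10*, a claudin gene, at 0.24 (0.106), *Tgds* at 0.22 (0.186) and *Dzip1* at 0.18 (0.138). The smallest adjusted p was that of *Dzip1l*, beside *Sox14*, at 0.26 (0.0825), which passed without control replicate 4 (adjusted p = 0.0266 from limma). Also beside *Sox14*, *Nck1* had 0.12 (0.325). *Sox1ot*, a long non-coding RNA whose gene spans *Sox1*, had 0.11 over both batches (limma adjusted p = 0.549), and 0.02 and 0.20 in batches 1 and 2.

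**Figure D4:**
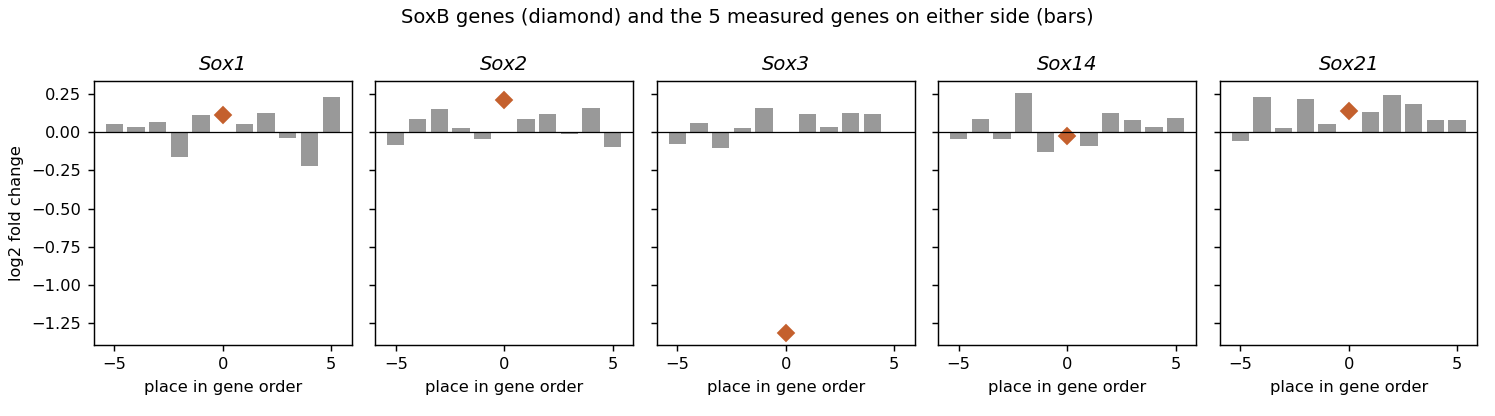
Genotype difference, *Sox3* null minus control in log2 units (vertical axis), of each SoxB gene (diamond) and the 5 measured genes on either side of it in gene order (bars). *Sox3* stands alone at -1.31, while its neighbours lie between -0.10 and 0.16.

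Among 17 measured partner and target genes of SOXB1 proteins in neural progenitors, 3 were higher in *Sox3* null cells by the test, 14 did not pass and none fell, against 1.15% of all named rows higher and 0.393% lower. The list had a median log2 fold change of 0.12, against 0.00 for all named rows. *Nes*, whose neural enhancer carries adjoining SOX and POU sites, rose by 0.49 (standard error 0.08, adjusted p = 0.00947 from limma). It read 11.04, 11.04, 10.46 and 10.71 on the control arrays and 11.36, 11.41, 11.15 and 11.29 on the null arrays. Every null array lay above every control array, as for 2.41% of all named rows. The POU partner genes *Pou3f2* and *Pou3f4* rose by 0.36 (adjusted p = 0.0214) and 0.37 (adjusted p = 0.0466). *Pou3f3*, of the same family, had 0.43 and missed the threshold (adjusted p = 0.0537 from limma). *Pou3f1*, named after its values were seen, had -0.23 (adjusted p = 0.0557), the opposite sign in the same POU class. In either batch both null arrays lay below both control arrays, and 12.1% of named rows separated within each batch in the same direction. The signs of *Nes* and these POU genes held under every alternative. A dimmer *Pou3f2* row had 0.66 (adjusted p = 0.00862). *Pou3f4* lost its call in 8 of 8 leave-one-out fits and *Pou3f2* in 5, and with all rows of the table fitted none of the 17 passed (*Nes* adjusted p = 0.0833).

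Of 12 SOX2 partner and target genes of ES cells, 1 fell, none rose and 11 did not pass, with a median of -0.08, where 0.393% of all named rows fell. *Nanog*, a pluripotency factor whose promoter carries a joint SOX and POU site, fell by 0.37 (standard error 0.08, adjusted p = 0.0464 from limma). It read from 10.47 to 10.74 on the control arrays and from 10.11 to 10.39 on the null arrays, and it lost its call in 7 of 8 leave-one-out fits. *Pou5f1*, the ES cell partner of SOX2, had -0.27 (adjusted p = 0.259), with -0.47 in batch 1 and -0.06 in batch 2. *Sall4* had -0.24 (adjusted p = 0.0822) and *Klf4* -0.18 (adjusted p = 0.311). The mean of the 7 pluripotency markers ran from 9.36 to 9.51 on the control arrays and from 9.25 to 9.47 on the null arrays, so the groups overlapped.

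Of 15 measured genes of neural induction, the step at which SoxB1 expression begins, 2 fell, none rose and 13 did not pass, with a median of 0.02, where 0.393% of all named rows fell. *Fst*, which encodes the activin and BMP antagonist follistatin, fell by 0.48 (standard error 0.07, adjusted p = 0.00517 from limma). Its control arrays lay between 10.67 and 10.74 and its null arrays between 10.03 and 10.37. *Otx2*, a homeobox gene of the early neural plate and forebrain, fell by 0.47 (standard error 0.08, adjusted p = 0.0113). Its control arrays lay between 9.29 and 9.43 and its null arrays between 8.59 and 9.16, with a difference of -0.65 in batch 1 and -0.29 in batch 2. *Id3*, a BMP response gene, had 0.39 (adjusted p = 0.0740) and *Fgf5*, an FGF ligand of the epiblast, -0.34 (adjusted p = 0.118). Without control replicate 1, *Otx2* missed the threshold (adjusted p = 0.0518 from limma), and with all rows fitted neither *Fst* (0.0605) nor *Otx2* (0.0934) passed.

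Of 16 measured neurogenic and V2 interneuron genes, 1 rose, none fell and 15 did not pass, where 1.15% of all named rows rose. Listed were neuronal genes that SOXB1 factors are known to hold back and factors of the interneuron lineage in which *Sox14* is expressed. The list was split evenly, with 8 members above 0 and 8 below and a median of 0.04. *Neurod4*, a proneural factor, rose by 0.32 (standard error 0.07, adjusted p = 0.0451 from limma), and lost its call in 6 of 8 leave-one-out fits. *Tubb3*, the neuronal tubulin gene, had 0.31 (adjusted p = 0.0883), *Neurog1* 0.26 (adjusted p = 0.216) and the RNA-binding protein gene *Elavl4* 0.20 (adjusted p = 0.195). On the other side lay the transcription factor genes *Foxn4* at -0.20 (adjusted p = 0.326) and *Lhx4* at -0.17 (adjusted p = 0.248), which were named after their values were seen. Of the 16 genes, 7 lay below the median signal of named rows, *Foxn4* and *Lhx4* among them. At such signals a low level and background were not separated. The mean of the 5 neuron markers ran from 9.32 to 9.40 on the control arrays and from 9.45 to 9.72 on the null arrays without overlap. Of these markers 1, *Map2*, rose (0.47, adjusted p = 0.0132 from limma), and 4 did not pass, with *Stmn2* at -0.17. The part of neurons in these differences was not tested.

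Of the 15 other Sox genes, 1 rose and 14 did not pass, with a median of 0.00, where 1.15% of all named rows rose. *Sox9*, of the SoxE group and active in neural crest and neural stem cells, rose by 0.51 (standard error 0.07, adjusted p = 0.00325 from limma). It read 10.54, 10.48, 9.89 and 9.91 on the control arrays and 10.99, 10.86, 10.40 and 10.62 on the null arrays. The genotypes separated within each batch in the same direction, as for 12.1% of named rows, and overlapped over both batches. Without the batch term *Sox9* did not pass (adjusted p = 0.562 from limma). The SoxD gene *Sox13* had -0.17 (adjusted p = 0.208), the Y-linked *Sry* -0.12 (adjusted p = 0.550) and *Sox5* 0.09 (adjusted p = 0.582). Of the 7 neural crest markers, 2 (*Tfap2b* and *Ednrb*) rose and 5 did not pass, and the list mean overlapped between groups, at 7.67 to 7.99 on the control arrays and 7.94 to 8.19 on the null arrays. The list mean was higher by 0.21 in *Sox3* null cells, and 5 of the 7 markers had a log2 fold change above 0. *Sox10* and *Foxd3* lay below 0, at -0.08 (adjusted p = 0.675) and -0.12 (adjusted p = 0.568). Both were below the median signal, as were *Tfap2a*, *Snai2* and *Msx1*. The part of neural crest in the *Sox9* difference was not tested.

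**Figure D5:**
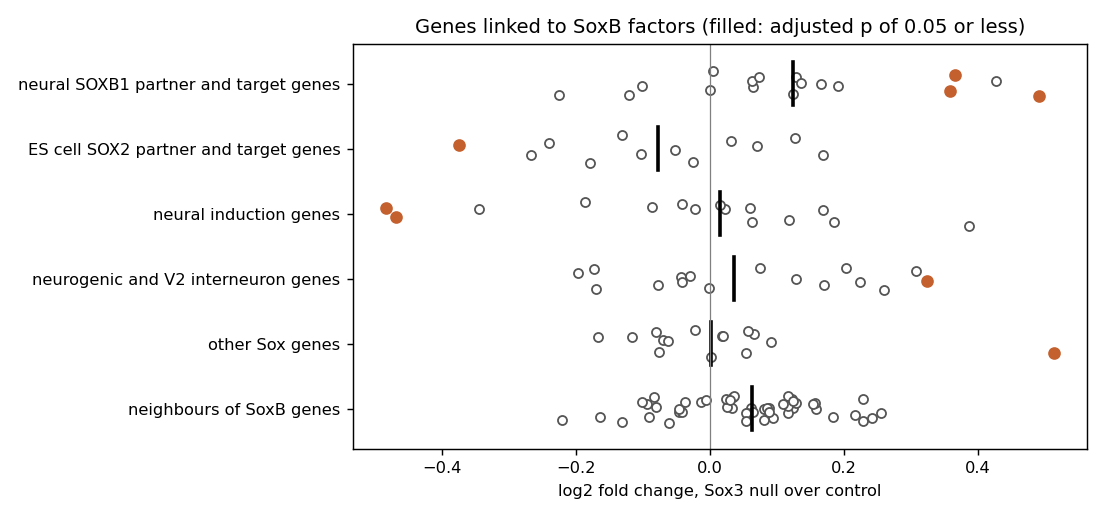
Genotype difference, *Sox3* null minus control in log2 units (horizontal axis), of the measured genes of 5 lists linked to SoxB factors and for the 50 neighbours of SoxB genes. Each circle is a gene, filled where the adjusted p from limma was 0.05 or less, and bars are list medians, from -0.08 for ES cell SOX2 partner and target genes to 0.12 for neural SOXB1 partner and target genes.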

How the data were processed

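RNA of 8 Day 4 cultures was hybridised to Affymetrix Mouse Gene 1.0 ST arrays, 4 per genotype. The authors deposited log2 signals per transcript cluster, normalized and summarised before deposit. Partek is the tool in the submitters' processing notes. The normalization, the probe summary and the build were not given in the sources used here. Symbols followed the platform annotation, with current names, and 21698 of 21789 rows with 1 symbol matched GRCm38.p6 by gene ID. Another 1621 rows carried several symbols, and 12146 carried none here.

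Genotype and batch, the design of the methods, were the terms of a limma 3.58.1 model (R 4.3.3) over the 23410 named rows, with Benjamini-Hochberg adjustment over all of them. All adjusted p-values are from this model unless stated. The median residual SD was 0.0869. The number of arrays limits the precision. No 2 arrays held identical values.

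Named were all members, in each list up to 4 genes with the smallest p, the nearest profiles, non-coding RNAs at a member's locus, and neighbours with an unadjusted p under 0.05, besides genes said to be named after their values were seen and markers. The brightest row stood for a gene. Members, lists and rules were chosen with earlier results of these data known. The fit was also run on arrays simulated from its own variances and batch differences, which cannot test how well it suits these data. Alternatives were other sets of rows, variance models, batch treatments, normalization, array weights and leaving out each array. Replicate numbers 1 and 2 mark batch 1, and 3 and 4 batch 2, per the labels. qRT-PCR, immunostaining, chromatin and embryo measurements were not analysed here.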

Additional observations from a re-analysis of the deposited data

Results flagged for a closer look

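*Sox1* on control replicate 3 read 10.97, with a gap to the next control array of 0.888 of the group's range. In the other groups of 4 arrays, *Nanog* on control replicate 4 was low (10.47, a gap of 0.837 of the range), *Sry* on control replicate 2 was low (7.42, 0.879), *Id3* on *Sox3* null replicate 3 was high (9.06, 0.867), and *Spata5l1*, the gene nearest to *Sox1* in profile, was high on null replicate 2 (8.79, 0.875). The 38 genes examined gave 76 groups, of which these 5 were singled out. Chance flags about 1 group in 20.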

How the results depend on the processing

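The differences of *Sox1*, *Sox2*, *Sox3* and *Sox21* kept their direction under all 19 alternatives, and *Sox3* passed in each. Leaving out 1 array gave 0.01 to 0.19 for *Sox1*, 0.18 to 0.24 for *Sox2*, -1.39 to -1.26 for *Sox3*, -0.074 to 0.055 for *Sox14* and 0.10 to 0.17 for *Sox21*. *Sox2* kept its 0.21 and passed without dim rows or with a variance that follows intensity, and its adjusted p ran from 0.0189 to 0.716. *Sox14* turned to 0.092 in batch 2 alone, to 0.03 without null replicate 1 and to 0.055 without control replicate 1, and could not be fitted without dim rows, being one of them. *Sox5* turned to -0.019 in batch 2 alone. Of the neural SOXB1 genes, 5 passed without dim rows (13 left), with an intensity trend or with array weights, and 0 with all rows, with a random batch block, with no batch term, in the plain linear model and in either batch alone, while leaving out 1 array left 1 to 2. Of the ES cell genes, 2 passed with an intensity trend and 0 with all rows, without the batch term, with a random block, in the plain linear model and in either batch, and 0 to 1 without 1 array. Of the induction genes, 0 passed with all rows, in the plain linear model and in either batch, 1 without the batch term or with a random block, and 1 to 3 without 1 array. Of the neurogenic genes, 0 passed with all rows, without the batch term, with a random block, in the plain linear model, after quantile normalization, with array weights and in either batch, and 0 to 1 without 1 array. Of the other Sox genes, 0 passed without the batch term, with a random block, in the plain linear model and in either batch, and 1 without any 1 array. Of the neighbours, 1 passed in the plain linear model (*Cdr1os*, beside *Sox3*, with a low mean log2 signal of 4.73), and 0 to 1 without 1 array. The cause was not tested.

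With the replicate number as a block in place of batch, the log2 fold change of *Sox2* was 0.21 (adjusted p = 0.130 from limma) and that of *Sox3* -1.31 (4.33e-04). In this fit 4 neural SOXB1 genes passed, and 0 ES cell and 0 neurogenic genes did, since *Nanog* (0.0718) and *Neurod4* (0.0899) missed the threshold. Deviations of same-numbered arrays from their group means correlated across genes at 0.39 to 0.68, which includes the batches. Within genotype and batch they correlated at -0.32 in batch 1 and 0.30 in batch 2. With opposite signs and 2 arrays per genotype and batch, these values cannot decide whether the numbers pair arrays beyond batch.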
